A study of Mus musculus with 5 samples.

Results

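The genes described here are Nrip1 and 8 nuclear receptor coregulators: the corepressor partners Ctbp1, Ctbp2, Ncor1 and Hdac3, and the coactivators Ncoa1, Ncoa2, Ncoa3 and Med1. They were chosen by gene name for their known biochemistry, with earlier results of these data known. They are 9 of the 17015 genes in the deposited table, and each is present in it once. RNA came from whole tibialis anterior (TA), a fast-twitch leg muscle, of male sedentary mice at 8 weeks of age. The comparison has 3 libraries labelled WT control and 2 labelled skmNrip1-/-. In the study's design, skmNrip1-/- mice carry Nrip1 fl/fl alleles (from a C57BL/6J line) and, from a C57BL/6JN line, a Cre recombinase driven by the myogenin promoter, which is active in skeletal muscle lineage cells, so other cells of the muscle keep the gene. Controls were Cre-negative littermates from the same crosses. The labels do not tie each library to a separate animal, so the p-values measure only the spread between these libraries. In bulk tissue, fewer cells of a type and less RNA per cell cannot be told apart.

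Nrip1 encodes RIP140, a coregulator that binds ligand-activated and orphan nuclear receptors and mostly represses their target genes, and in muscle it is known as a brake on oxidative metabolism. It docks on receptors through short LXXLL motifs, the same kind of motif that the p160 coactivators (Ncoa1, Ncoa2 and Ncoa3) and the Mediator subunit Med1 use, so coactivators and RIP140 compete for the same receptor surface. Once bound, RIP140 recruits corepressors: the CtBP proteins through PXDLS-type motifs, and histone deacetylases such as Hdac3, which also works as the catalytic subunit of complexes built on Ncor1. The comparison asks whether the partners or the opposing coactivators differ in transcript level between the groups.

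The reference sequence shows where motifs of these kinds are encoded. By the GENCODE M21 gene models on GRCm38, Nrip1 lies at chr16:76287400-76373827 on the minus strand. Its whole coding sequence of 3486 bases (1161 codons and the stop) lies in exon 4, the last exon of the longest transcript, at chr16:76287400-76295015. This is the exon flanked by loxP sites in the floxed allele. A search of the coding sequence in frame found 10 LXXLL matches, of which 2 overlap at codons 501 and 502, and 1 PXDLS match. Variants of the PXDLS motif were not searched for. The PXDLS match and the first, a middle and the last LXXLL match are printed because loss of exon 4 would remove them. Each is 27 bases of coding strand, 5′ to 3′, with the 15 bases of the motif's codons in capitals. They start at codons 441, 21, 501 and 937 and lie at chr16:76293327-76293353, chr16:76294587-76294613, chr16:76293147-76293173 and chr16:76291839-76291865. A match is a description of letters and was not tested as a binding site.
PXDLS match, codon 441: tgcgttCCCATAGACCTGTCTtgcaaa
LXXLL match, codon 21: acttacCTCGAAGGGTTACTAatgcat
LXXLL match, codon 501: gtcactCTTCTTCAGTTGCTGctcggc
LXXLL match, codon 937: aatgttCTCAAGCAGCTGCTGctctcc

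The values are FPKM, fragments per length of transcript scaled between libraries. They correct for transcript length, so that levels can be set side by side between genes. The sum of FPKM ranged from 969144 to 1288038 per library, and the number of fragments is not in the table, so the absolute depth is unknown. Differences were tested with limma on log2(FPKM + 0.1) over the 12148 genes whose mean reached 0.5 FPKM. Genes were called where the adjusted p did not exceed 0.05 and the fold reached 1.2. By this rule 55 genes passed, 0.453% of those tested, with 45 higher (0.37%) and 10 lower (0.0823%) in the libraries labelled skmNrip1-/-. Rescaling each library to the same total (TPM) turned that split into 29 higher and 59 lower, and moved the median difference over all genes, on the log2 scale, from -0.00054 to -0.29. Transcripts encoded by mitochondrial DNA made up 45.4% to 50.7% of the summed FPKM in WT controls and 58.6% to 60.9% in the libraries labelled skmNrip1-/-. Their part in the results was not tested beyond the rescaling given with the coregulators. Markers of muscle fibres summed to 63503 to 85484 FPKM in WT controls and 58543 to 61076 FPKM in the other group. They were abundant in every library, and both libraries of the latter group lay below all controls. None of the 6 fibre markers was called in limma, and their part in the results was not tested.

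Nrip1 (ENSMUSG00000048490), the targeted gene, was higher in the libraries labelled skmNrip1-/-. Its level was 4.64, 7.69 and 6.55 FPKM in the WT control libraries and 25.3 and 22.5 FPKM in the libraries labelled skmNrip1-/-. Both of the latter lay above every control library, and the groups were separated by more than the whole range of the controls. The group means were 6.29 ± 1.54 FPKM (SD, n = 3) and 23.9 ± 1.92 FPKM (SD, n = 2). Nrip1 was higher by 1.94 on the log2 scale (SE 0.21), a fold of 3.83 with a 95% interval of 2.69 to 5.45, with an adjusted p of 0.0261 in limma. Among the 45 genes called higher it had the 16th largest log2 fold change. A two-sided exact permutation test gave p = 0.1, the smallest that the 10 possible splits allow.

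The call depended on single libraries. Without WT control replicate 3 the adjusted p of Nrip1 in limma was 0.114, and without replicate 1 or replicate 2 labelled skmNrip1-/- it was 0.189 and 0.143. Its direction did not change, and the log2 fold change stayed between 1.74 and 2.09 when each of the 5 libraries was left out in turn. The gene-level value of Nrip1 was higher under the knockout label and cannot by itself show whether the label holds. Every direction given below is therefore that of the libraries as labelled.

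The deposited value of Nrip1 is 1 number per gene and cannot show whether exon 4 was present. How the transcripts and their lengths entered it is not given. Of the 8 annotated transcripts, 3 retained-intron forms of 2823, 2617 and 1139 bases hold no exon 4 sequence. The longest transcript has 96.8% of its 7868 bases in exon 4 and 252 bases outside it. The other transcripts that reach exon 4, of 4529, 432, 706 and 540 bases, have 91.7%, 85.6%, 64.0% and 53.5% of their bases there. The part of each transcript in the deposited value, and of fragments from exon 4, was not tested, since the table does not separate them. No other annotated gene overlaps Nrip1.

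**Figure D1:**
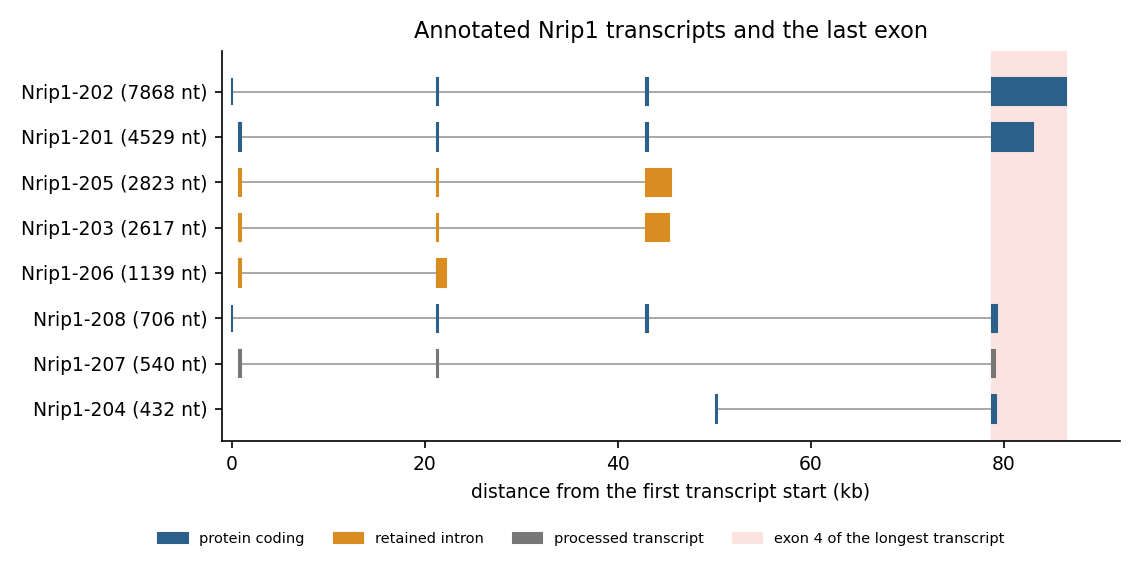
Annotated Nrip1 transcripts (GENCODE M21), drawn to scale by distance from the first transcript start in kb, with boxes for exons, colours for the transcript type and the shaded band for exon 4 of the longest transcript. Of the 8 transcripts, 5 reach the shaded band and 3 retained-intron forms end before it.

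None of the tested genes on either side of Nrip1 was called. Of 26 annotated genes within 1 Mb, 5 are protein coding and 3 are in the table. Hspa13, which encodes an Hsp70-family ATPase, was at 2.25, 2.92 and 2.99 FPKM in WT controls and 2.47 and 2.89 FPKM in the libraries labelled skmNrip1-/-, a log2 fold change of -0.02 (95% interval -0.44 to 0.41). Usp25, a deubiquitinase gene, was at 1.67, 2.74 and 2.28 FPKM against 1.87 and 2.80 FPKM, a log2 fold change of 0.07 (95% interval -0.56 to 0.69). In both genes the groups overlapped, and the adjusted p in limma was 0.987 for Hspa13 and 0.954 for Usp25. Samsn1, which encodes an adaptor protein known from lymphocytes, was below the minimum and was not tested, with 0.081, 0.0351 and 0.115 FPKM in WT controls and 0.398 and 0.447 FPKM in the other group.

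None of the 8 coregulators was called (0 of 8, against 0.453% of all tested genes), and 0 of 8 reached an unadjusted p of 0.05 in limma, a level that 6.57% of all tested genes reached as higher and 5.33% as lower. Their 95% intervals together spanned folds of 0.771 to 1.47, so each interval lay below the 2.69-fold lower bound for Nrip1. The libraries of the groups did not overlap for 3 of the 8: Ncoa1 and Med1 were above every control in both libraries labelled skmNrip1-/- on the deposited scale, while their fold changes were -0.12 and -0.020 on the log2 scale under TPM, and Ctbp2 was below every control. Over all tested genes, libraries did not overlap in 15.8% as higher and in 14.4% as lower. The median log2 fold change was 0.07 over the 8 coregulators, 0.01 over the 4 corepressor partners and 0.13 over the 4 coactivators, beside -0.00054 over all tested genes. Under TPM, which moved the median of all genes to -0.29, 3 of the 8 reached an unadjusted p of 0.05 in limma as lower, all of them corepressor partners, and none was called. These were Ctbp1 at -0.31, Ctbp2 at -0.40 and Hdac3 at -0.28 on the log2 scale. Relative to that median they lay at -0.01, -0.11 and 0.02, Ncoa1 at 0.17 and Med1 at 0.27. Without WT control replicate 2, 2 of the 8 reached an unadjusted p of 0.05 in limma as higher, Ncor1 at 0.32 and Med1 at 0.32, and none was called. With each library rescaled to the same sum without the mitochondrially encoded genes, an alternative added after seeing the data, the log2 fold changes of the 8 ran from -0.03 for Ctbp2 to 0.35 for Med1, and again none was called.

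**Figure D2:**
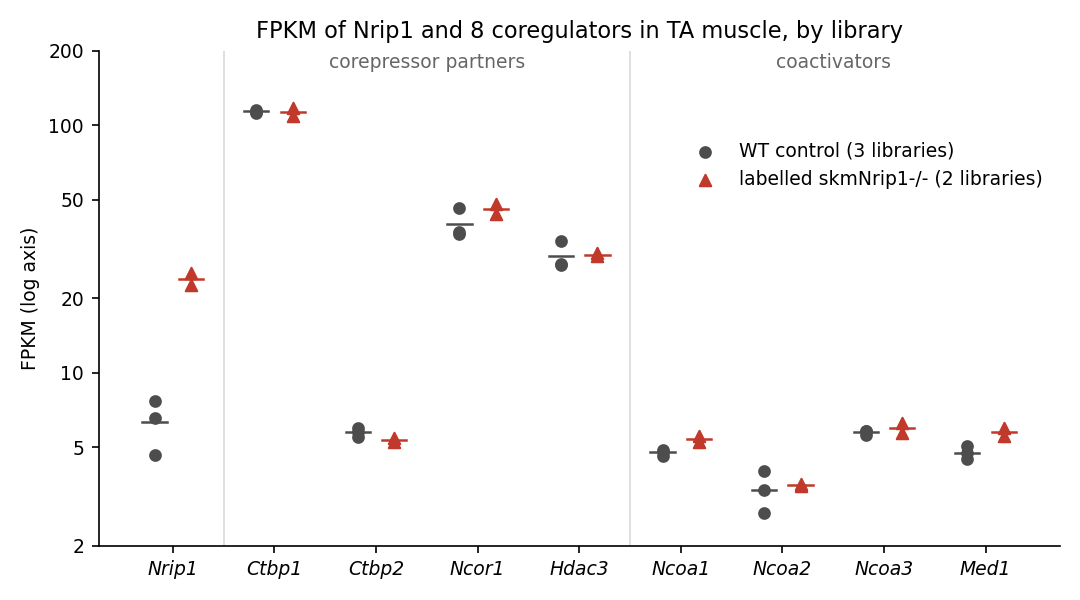
FPKM on a log axis for the 9 genes in each library, with 1 point per library, horizontal lines at the group means and colours for the 2 groups. Nrip1 shows the widest gap between the groups, from 4.64 to 7.69 FPKM in WT controls against 22.5 and 25.3 FPKM.

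Among the corepressor partners, Ctbp1 (ENSMUSG00000037373) was the most abundant of the 9 genes. It encodes an NAD(H)-binding corepressor that brings histone-modifying enzymes to DNA-bound factors. Its level was 113.4, 115.6 and 112.4 FPKM in WT controls and 117.9 and 108.9 FPKM in the libraries labelled skmNrip1-/-, so the latter lay on both sides of all controls. The log2 fold change was -0.01 (SE 0.10), and the fold of 0.995 had a 95% interval of 0.847 to 1.17. The adjusted p in limma was 0.99.

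Ctbp2 (ENSMUSG00000030970), the paralog of Ctbp1 with the same kind of repressor function, was present at a far lower level. It was at 5.99, 5.51 and 5.78 FPKM in WT controls and 5.45 and 5.23 FPKM in the libraries labelled skmNrip1-/-. Both of the latter were below every control, by a small margin. The log2 fold change was -0.11 (SE 0.11, 95% interval -0.37 to 0.16), with an adjusted p of 0.784 in limma and p = 0.2 in the exact permutation test. Of the annotated exonic bases of Ctbp2, 5.05% are shared with other genes on the same strand, including Fgfr2, so a part of its fragments may be counted for either gene. The ratio of Ctbp1 to Ctbp2 FPKM within a library was 18.9, 21.0 and 19.4 in WT controls and 21.6 and 20.8 in the other group, and the groups overlapped.

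Ncor1 (ENSMUSG00000018501) encodes the nuclear receptor corepressor that holds Hdac3 on unliganded receptors. It was at 36.3, 46.5 and 37.1 FPKM in WT controls and 43.6 and 48.2 FPKM in the libraries labelled skmNrip1-/-, with WT control replicate 2 inside the range of the latter. The log2 fold change was 0.21 (SE 0.14, 95% interval -0.13 to 0.54), with an adjusted p of 0.636 in limma. Without WT control replicate 2, the control library with the highest Ncor1 level, the log2 fold change was 0.32 (adjusted p 0.249 in limma), and with other libraries left out it was as low as 0.14. Hdac3 (ENSMUSG00000024454), the deacetylase of that complex, was at 34.2, 27.5 and 27.3 FPKM against 30.5 and 29.5 FPKM. The libraries labelled skmNrip1-/- lay within the control range, and the log2 fold change was 0.02 (SE 0.13, 95% interval -0.29 to 0.34), with an adjusted p of 0.9702 in limma.

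The coactivators were present at lower levels than Ctbp1, Ncor1 and Hdac3. Ncoa1 (ENSMUSG00000020647), known as SRC-1, is a p160 coactivator that brings acetyltransferases to liganded receptors. It was at 4.62, 4.79 and 4.88 FPKM in WT controls and 5.56 and 5.23 FPKM in the libraries labelled skmNrip1-/-, both above every control. The log2 fold change was 0.18 (SE 0.11, 95% interval -0.09 to 0.45), with an adjusted p of 0.616 in limma and p = 0.1 in the exact permutation test.

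Ncoa2 (ENSMUSG00000005886), the p160 coactivator also called SRC-2 or GRIP1, was the least abundant of the 9 genes. It was at 2.72, 3.997 and 3.37 FPKM in WT controls and 3.50 and 3.56 FPKM in the libraries labelled skmNrip1-/-, which lay within the control range. The log2 fold change was 0.08 (SE 0.18, 95% interval -0.35 to 0.52). Ncoa3 (ENSMUSG00000027678), the third p160 member, was at 5.80, 5.82 and 5.61 FPKM against 5.72 and 6.25 FPKM. The groups overlapped, and the log2 fold change was 0.06 (SE 0.11, 95% interval -0.21 to 0.32). Adjusted p-values in limma were 0.900 for Ncoa2 and 0.894 for Ncoa3.

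Med1 (ENSMUSG00000018160), the Mediator subunit that liganded receptors contact, had the largest log2 fold change of the 8 coregulators on the deposited scale with all libraries. Under TPM that of Ctbp2 was the largest in size, and without WT control replicate 2 or replicate 1 labelled skmNrip1-/- that of Ncor1 was. It was at 4.73, 5.06 and 4.48 FPKM in WT controls and 5.96 and 5.57 FPKM in the libraries labelled skmNrip1-/-, both above every control. The log2 fold change was 0.27 (SE 0.12) and the fold of 1.21 had a 95% interval of 0.992 to 1.47. Its unadjusted p in limma was 0.0575 and its adjusted p was 0.444, so it did not pass the test. The exact permutation test gave p = 0.1.

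**Figure D3:**
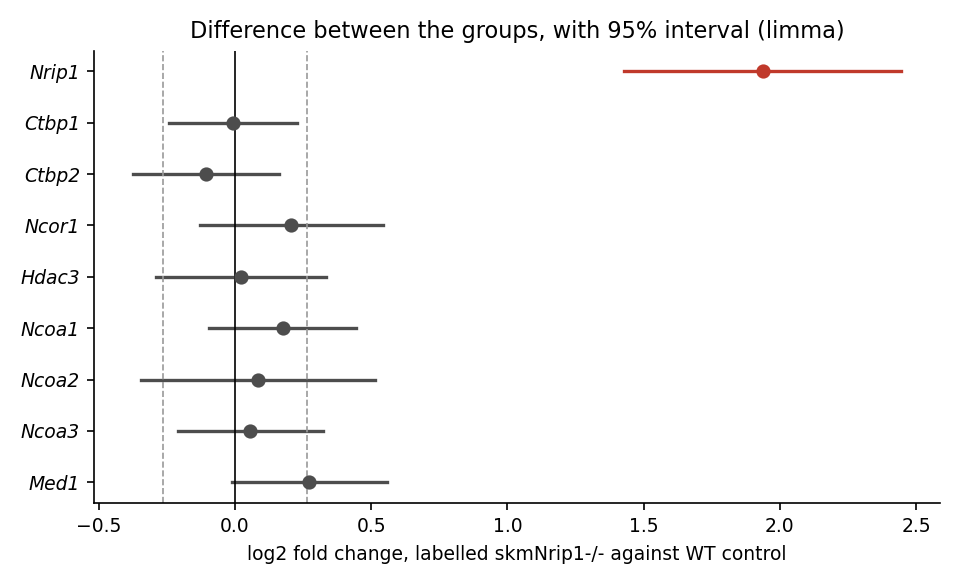
Log2 fold change of log2(FPKM + 0.1), libraries labelled skmNrip1-/- minus WT control, for each of the 9 genes with its 95% interval from limma and dashed lines at a fold of 1.2 in either direction. Nrip1 lies at 1.94, and the intervals of all 8 coregulators include 0.

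The order of levels among the 9 genes was partly the same in both groups. In WT controls, Ctbp1 (113.8 ± 1.63 FPKM, SD, n = 3) stood above Ncor1 (39.9 ± 5.65) and Hdac3 (29.7 ± 3.89), and no library of one gene overlapped with the next. Below them, Nrip1 (6.29 ± 1.54), Ctbp2 (5.76 ± 0.241) and Ncoa3 (5.75 ± 0.114) had overlapping ranges. Ncoa1 (4.77 ± 0.134) and Med1 (4.76 ± 0.289) also overlapped, and Ncoa2 (3.36 ± 0.637) was below both in every control library. In the libraries labelled skmNrip1-/-, Nrip1 remained the fourth, between Hdac3 (29.99 ± 0.655 FPKM, SD, n = 2) and Ncoa3 (5.98 ± 0.376). Med1 (5.77 ± 0.278) and Ncoa1 (5.39 ± 0.235) followed, with Ctbp2 (5.34 ± 0.154) and Ncoa2 (3.53 ± 0.0449) as the lowest.

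Set against the Nrip1 value within each library, the partners were in smaller excess in the libraries labelled skmNrip1-/-, a difference that Nrip1 itself carries. That value cannot show whether exon 4 was present, so the ratios do not measure an excess over RIP140. The ratio of Ctbp1 to Nrip1 FPKM was 24.5, 15.04 and 17.2 in WT controls and 4.67 and 4.83 in the other group. For Ctbp2 the ratio was 1.292, 0.717 and 0.882 against 0.216 and 0.232, so that Nrip1 was near the level of Ctbp2 in WT controls and above it in the other group. For Hdac3 the ratio was 7.37, 3.58 and 4.17 against 1.21 and 1.31. The sum of the 4 corepressor partners was 189.9, 195.1 and 182.7 FPKM in WT controls and 197.4 and 191.9 FPKM in the libraries labelled skmNrip1-/-, and the groups overlapped. The sum of the 4 coactivators was 17.9, 19.7 and 18.3 FPKM against 20.7 and 20.6 FPKM, with no overlap on the deposited scale. Coactivators summed to 9.41%, 10.08% and 10.05% of the partner sum in WT controls and to 10.5% and 10.7% in the other group. None of these sums was tested.

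The genes around these coregulators were described from 5 lists of related genes, and none of their 96 tested members was called in limma on the deposited scale. At an unadjusted p of 0.05 or less in limma, 6 of the 96 were higher and 5 were lower, beside shares of 6.57% and 5.33% over all tested genes. Their median log2 fold change was 0.01, and 52 of 96 lay above 0. Libraries did not overlap for 15 of the 96 as higher and 17 as lower, beside 15.8% and 14.4% over all tested genes.

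Among 14 tested corepressors other than the 4 partners, 6 had log2 fold changes above 0 and the median was -0.0033. The lowest was Hdac7, a class IIa histone deacetylase that binds MEF2 factors, at 6.66, 6.15 and 6.99 FPKM in WT controls and 4.80 and 4.45 FPKM in the libraries labelled skmNrip1-/-. The groups did not overlap, and the log2 fold change was -0.50 (SE 0.12), at an adjusted p of 0.193 in limma. The highest was Hdac9, of the same class, at 0.90, 1.23 and 1.30 FPKM against 1.67 and 1.34 FPKM (0.37, SE 0.23, adjusted p 0.593 in limma).

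Of 12 tested genes of the CtBP complex, 9 had log2 fold changes above 0, the median was 0.11, and none reached an unadjusted p of 0.05. The lowest was Ehmt1, an H3K9 methyltransferase, at 7.79, 7.31 and 6.16 FPKM in WT controls and 5.62 and 6.45 FPKM in the libraries labelled skmNrip1-/-. The groups overlapped, and the log2 fold change was -0.23 (SE 0.14), at an adjusted p of 0.615 in limma.

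Of 18 other coactivators, 10 lay above 0 and the median was 0.01, with 1 gene at an unadjusted p of 0.05 or less in each direction. The highest was Ppargc1b, which encodes PGC-1β, a coactivator of ERR receptors and of mitochondrial genes. It was at 3.39, 4.94 and 4.39 FPKM in WT controls and 6.30 and 6.49 FPKM in the libraries labelled skmNrip1-/-. The groups did not overlap, and the difference was 0.60 on the log2 scale (SE 0.18), at an adjusted p of 0.271 in limma. The lowest was Smarcd3, a muscle-rich SWI/SNF subunit also called BAF60C, at 135.8, 97.9 and 107.4 FPKM against 73.1 and 77.7 FPKM. Its groups did not overlap either, and its log2 fold change was -0.58 (SE 0.16), with an adjusted p of 0.243 in limma.

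Mediator, the complex that holds Med1, bridges transcription factors and RNA polymerase. Of the other 31 tested subunits, 13 lay above 0 and the median was -0.03, with 2 at an unadjusted p of 0.05 or less in each direction. The highest was Med16, a tail-module subunit, at 9.98, 11.3 and 10.6 FPKM in WT controls and 14.5 and 11.7 FPKM in the libraries labelled skmNrip1-/- (0.29, SE 0.13, adjusted p 0.460 in limma). The lowest was Ccnc, the cyclin of the kinase module, at 4.12, 6.81 and 5.26 FPKM against 3.80 and 3.49 FPKM (-0.53, SE 0.21, adjusted p 0.404 in limma).

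The receptors that these coregulators bind did not pass the test either. Of 23 tested nuclear receptors, 16 lay above 0 and the median was 0.05, with 3 higher and 1 lower at an unadjusted p of 0.05 or less in limma. Esrrb, an orphan receptor of the ERR family, was the highest at 0.63 (SE 0.30), with 1.13, 2.32 and 2.07 FPKM in WT controls and 2.83 and 2.75 FPKM in the libraries labelled skmNrip1-/-. Rxrg, the retinoid X receptor that is rich in skeletal muscle, was the lowest at -0.41 (SE 0.18), with 31.4, 22.8 and 20.9 FPKM against 19.3 and 17.7 FPKM. Adjusted p-values in limma were 0.475 and 0.458.

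**Figure D4:**
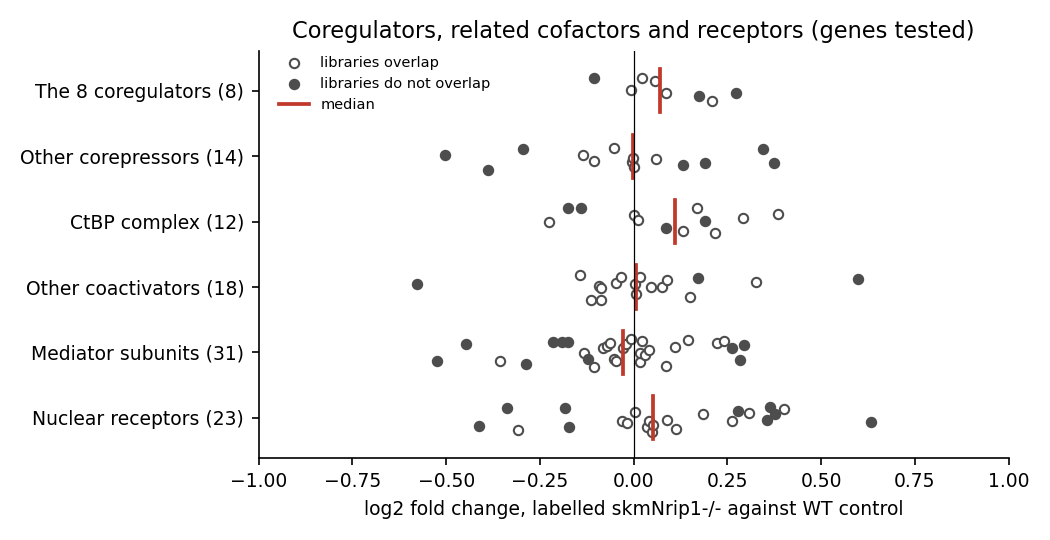
Log2 fold change, libraries labelled skmNrip1-/- minus WT control, of every tested gene in the 5 lists, with 1 point per gene, and with the 8 coregulators for comparison. The medians lie between -0.03 and 0.11, and no point is a called gene.

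The 5 genes whose profile over the 5 libraries was most like that of Nrip1 included none of the 8 coregulators. By the smallest root mean square distance between centred log2(FPKM + 0.1) values they were Cds1 (0.134), Cidea (0.168), Gm826 (0.196), Fabp3 (0.211) and Igsf8 (0.211). Cds1 encodes a CDP-diacylglycerol synthase of phospholipid synthesis, Cidea a lipid droplet protein, and Fabp3 the muscle and heart fatty acid-binding protein. Cds1 was at 0.627, 0.813 and 0.753 FPKM in WT controls and 3.22 and 2.65 FPKM in the libraries labelled skmNrip1-/-, a log2 fold change of 1.87 at an adjusted p of 0.0246 in limma. The log2 fold changes of Gm826, Fabp3 and Igsf8 were 1.64, 1.92 and 1.74. In limma their adjusted p-values were 0.0394, 0.00293 and 0.00424. Cidea was not called, at 0.279, 0.442 and 0.434 FPKM against 1.41 and 1.37 FPKM, a log2 fold change of 1.64 and an adjusted p of 0.0953 in limma. Of the 8 coregulators, the nearest to Nrip1 by this measure was Med1, in place 1382, followed by Ncor1 in place 1793 and Ncoa1 in place 2289. This measure mainly follows the difference between the groups, which was 1.94 on the log2 scale for Nrip1 and at most 0.27 for a coregulator. The places of the coregulators therefore restate their fold changes. The 5 genes were picked from these same values for their likeness to Nrip1, so their adjusted p-values are not separate support.

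**Figure D5:**
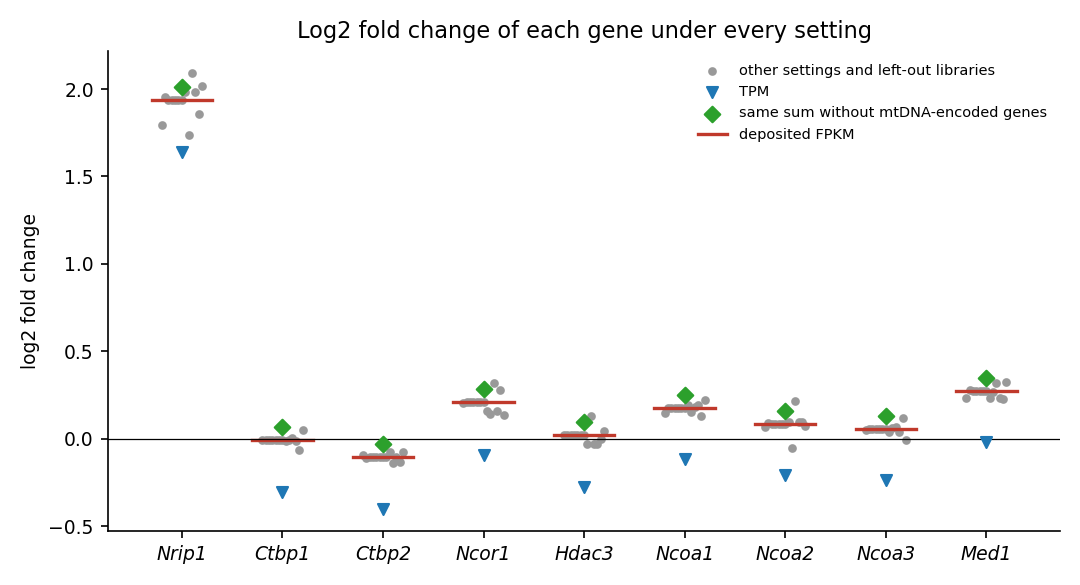
Log2 fold change of each of the 9 genes under the main setting and under each alternative of scaling, filter, model and left-out library, with 1 point per setting. Nrip1 stays between 1.64 and 2.09, while the coregulators lie around 0 and 6 of them are negative under TPM where they are positive on the deposited scale.

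No tested marker of another cell type was called beside these genes. Summed FPKM of blood markers was 511 to 764 in WT controls and 827 to 996 in the libraries labelled skmNrip1-/-, and that of satellite cell markers 1.015 to 1.27 and 0.820 to 0.997. Together with the fibre sum given above, these made 3 of 9 marker lists with sums that did not overlap between the groups. Single tested genes did not overlap in 15.8% as higher and in 14.4% as lower. Of the fibre markers, Acta1 and Ckm were below every control in both libraries labelled skmNrip1-/-, while Myh1, Myh4, Tnnt3 and Pvalb overlapped. Only 3 of 4 macrophage, 3 of 5 adipocyte and 1 of 3 satellite cell markers reached the minimum and were tested. None of the tested markers was called in limma, and none of the listed markers was at 0 in every library. Their part in the values of the coregulators was not tested.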

How the data were processed

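RNA-seq of TA muscle gave 5 libraries (NEBNext Ultra RNA kit, which does not mark strand, so antisense overlaps were not separated), grouped by their labels. The submitters' processing notes name Salmon 1.10.2, DESeq2 1.44.0 and mm10. Per the study's methods, the authors summarized transcripts to genes with tximport, and deposited FPKM for each gene. How the FPKM were computed, and the annotation release, are not given in the sources used here. Against the geometric mean of every gene, all libraries had a median ratio of 1.00, so the FPKM already carry a scaling that sets this median equal. Columns of the authors' own comparison (log2 fold change and adjusted p-value per gene) were also deposited and were not used.

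R 4.3.3 and limma 3.58.1 (lmFit, eBayes with an intensity trend, two-sided) were used to test differences on log2(FPKM + 0.1) for all 5 libraries without covariates, with Benjamini-Hochberg adjustment over 12148 genes, and limma was tested on simulated data. Fold changes on this scale understate those of low genes. Exact permutation tests used the difference in mean log2 values. Positions and sequences came from GENCODE M21 (GRCm38), which held 16996 of the 17015 gene IDs. Python 3.11.15, pandas 2.3.3, numpy 2.4.6 and matplotlib 3.10.9 were used. FPKM are not counts, so no counting interval is given. Depth relative to WT control replicate 1, from the commonest ratio of low values in genes with 1 transcript, was 1.1 and 0.994 in the other controls and 0.807 and 0.966 in the libraries labelled skmNrip1-/-, but only 6.93% to 8.51% of these genes lay at that ratio.

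Genes named are the 9 members, the called genes and those with the largest and smallest fold change in each of 5 lists (other corepressors, CtBP complex, other coactivators, Mediator subunits and nuclear receptors), the neighbours of Nrip1 and the 5 genes most like it; an item that meets this rule is not reported here. Members and lists were chosen with earlier results of these data known. Alternatives were other pseudocounts (1 and 0.01), minimums (none and 1), scalings (TPM, median of ratios), eBayes without trend or with robust estimation, a block for the replicate number, each library left out, no fold threshold and an adjusted p of 0.01. Other muscles, training, chromatin and physiology were not analysed here.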

Additional observations from a re-analysis of the deposited data

How the results depend on the processing

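Nrip1 kept its direction in all 15 alternatives, with log2 fold changes from 1.64 to 2.09 and adjusted p-values in limma from 0.0152 to 0.189, and was called in 10. It was no longer called without the trend (1.94, adjusted p 0.0769 in limma), with the replicate number as a block (1.98, adjusted p 0.128 in limma), or without 1 of 3 single libraries (range over all 5 left out in turn 1.74 to 2.09). Leaving out a library labelled skmNrip1-/- leaves 1, assumed to vary like the controls. The 15 alternatives were not all separate checks. Median-of-ratios scaling gave 1.94 again, since every library had the same factor. The block gave the same log2 fold change of Nrip1, 1.98, as leaving out WT control replicate 3. Deviations from the group means had r = 0.0647 and 0.0952 over 12148 genes in same-numbered libraries, and -0.0647 and -0.0952 with these numbers crossed. The deviations of 2 libraries in a group mirror each other by construction, so these values cannot show whether the numbers pair the samples. No coregulator was called in any setting (adjusted p 0.122 to 0.999 in limma), but 14 of 120 values changed sign. TPM gave -0.091 for Ncor1, -0.28 for Hdac3, -0.12 for Ncoa1, -0.21 for Ncoa2, -0.24 for Ncoa3 and -0.020 for Med1, and relative to the shifted median of all genes these were 0.20, 0.02, 0.17, 0.09, 0.05 and 0.27. The same sum without mitochondrially encoded genes gave 0.069 for Ctbp1, and the replicate block gave -0.033 for Hdac3. Leaving out libraries gave ranges of -0.064 to 0.050 for Ctbp1, -0.033 to 0.13 for Hdac3, -0.055 to 0.21 for Ncoa2 and -0.0068 to 0.12 for Ncoa3. The 45 genes called higher and 10 lower became 29 and 59 under TPM, 22 and 3 without the trend, 18 and 4 with the block and 14 and 3 at an adjusted p of 0.01. With single libraries left out they ranged from 6 to 55 and from 3 to 16. Beyond the smaller number of libraries or the stricter threshold, the cause was not tested. Absolute depth is unknown, and with 2 libraries in 1 group the intervals of the coregulators in the main setting allow folds of 0.771 to 1.47. These bounds do not hold for every setting. On the log2 scale the interval of Ncoa2 was -0.35 to 0.52 in the main setting and -0.73 to 0.32 under TPM. With the same sum without mitochondrially encoded genes it was -0.41 to 0.73.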

Other observations

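Some related genes were chosen after their values were seen, because they reached an unadjusted p of 0.05 or less without being the extremes of their list. Among Mediator subunits, Med25 was at 28.6, 27.2 and 30.4 FPKM in WT controls and 20.6 and 21.4 FPKM in the libraries labelled skmNrip1-/-, a log2 fold change of -0.45 (SE 0.10). Med6, of the head module, and Med27 had log2 fold changes of 0.28 (SE 0.11) and 0.26 (SE 0.10). For each of these 3 subunits the groups did not overlap on the deposited scale, and adjusted p-values in limma were 0.182 for Med25, 0.395 for Med6 and 0.397 for Med27, so none passed the test. Among receptors, Rara, a retinoic acid receptor, was at 3.55, 3.53 and 4.12 FPKM in WT controls and 4.56 and 5.04 FPKM in the other group, a log2 fold change of 0.36 (SE 0.13). Esrra, an orphan receptor that drives mitochondrial genes, had a log2 fold change of 0.36 (SE 0.10) and Rxra, a partner of many receptors, -0.34 (SE 0.10). Adjusted p-values in limma for these 3 receptors were 0.370, 0.254 and 0.293, and their groups did not overlap on the deposited scale either.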
